A study of Apis cerana with 76 samples.

Results

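The rectum of drones was set against the rectum of workers in the Asian honey bee, Apis cerana, using the miRNA counts of a small RNA sequencing series of wild-type bees. The series held 76 libraries of whole-bee stages and of dissected organs, and 4 of them were rectum libraries, 2 from drones and 2 from workers. The labels give the tissue as rectum for both groups and state no age, colony or number of bees. Of 171 miRNA entries in the organ count table, the 80 with 10 or more counts in the drone or the worker rectum column were compared. These 80 entries had 77 distinct sequences and held 99.98% of the miRNA counts of drone rectum and 99.96% of those of worker rectum. Of the other 91, 46 had 0 counts in both columns. The entries just inside the limit were miR-6000b-3p, with 10 counts in drone and 0 in worker rectum, and miR-6044-5p, with 10 and 4. Just outside it lay miR-6000-5p, with 9 and 2 counts, and miR-6005-5p, with 8 and 9.

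The rectum is the last part of the bee hindgut, where faeces are held and water and ions are taken back through the rectal pads, within a coat of muscle. Drones are the males of the colony, and workers are females that do not normally reproduce. A miRNA is a short RNA that guides a silencing complex to messenger RNAs, and its bases 2 to 8, the seed, carry most of the pairing to a target, so miRNAs of 1 seed can share targets. In a bulk organ, fewer cells of a type and less RNA per cell cannot be told apart.

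The following mature sequences belong to the entries on which the comparison turned, with their partners of like name or seed. They are given 5′ to 3′ as the authors' organ table lists them, with the seed in capitals.
miR-307-3p (also listed as miR-67-3p): cACAACCUuuuugagugagcga
miR-87a-3p: gUGAGCAAaguuucaggugugu
miR-275-3p: uCAGGUACcugaaguagcgcgc
miR-306-5p: uCAGGUACugagugacucugagu
miR-252b-5p: uUAAGUAGuagugucguagaug
miR-252a-5p: aUAAGUACuagugccgcagga
miR-6057-5p: uUUGUGACuguaacaacaaaug
miR-3759-3p: gACUCACGucgacuggguguccgc
miR-9a-5p: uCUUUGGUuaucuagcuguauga
miR-9c-5p: uCUUUGGUgagcuaacuguaugg
miR-13b-3p: uAUCACAGccauuuuugacgauu
miR-2a-5p (also listed as miR-2a-2-5p and miR-2a-3-3p): uAUCACAGccagcuuugaugagc
miR-31a-5p: aGGCAAGAugucggcauagcuga
miR-275-3p and miR-306-5p have the same seed, as do miR-9a-5p and miR-9c-5p, and miR-13b-3p and miR-2a-5p. The seeds of miR-252b-5p and miR-252a-5p are not the same. The authors' list of conserved miRNAs has another base near the end of miR-6057-5p and at the end of miR-306-5p. It ends miR-275-3p, miR-252b-5p, miR-252a-5p and miR-9a-5p at another length. These differences lie outside the seeds. In the authors' list of conserved miRNAs, miR-307-3p has a base more at its start, uCACAACCuuuuugagugagcga, which moves its seed by 1 base. That list also starts miR-3759-3p 2 bases earlier, as gGGACUCAcgucgacugggugucc, which moves its seed by 2 bases.

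Counts were pooled by the authors to 1 column per group, so each level below is a single value with no replicate error. Intervals given with a ratio are exact 95% binomial intervals that cover counting error only. Drone rectum had 456465 miRNA counts and worker rectum 184457, the smallest total of the 11 organ columns. Whether a column is a sum or a mean of its libraries was not stated. Levels are counts scaled to a common total (CPM, per 1000000 counts) after scaling by edgeR's trimmed mean of M-values (TMM) over the 11 organ columns, and a log2 ratio is that of drone over worker after adding 1 CPM. With this scaling 3 counts, taken as the floor of detection, were 6.13 CPM in drone and 10.99 CPM in worker rectum. The difference in depth between the columns moves with every ratio below, and its part in them was not tested.

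Both recta were led by the same 4 miRNAs. miR-1-3p, the conserved muscle miRNA, made up 29.4% of counts in drone rectum and 21.3% in worker rectum. miR-31a-5p made up 20.9% in drone and 19.6% in worker rectum, miR-184-3p, known from the germline and early embryo of flies, 15.2% and 14.3%, and miR-276-3p, which acts in olfactory memory in flies, 7.74% and 7.99%. The fifth place differed. In drone rectum it was held by miR-87a-3p, which takes part in dendrite regeneration in flies, with 6.17% against 2.47% in worker rectum. In worker rectum it was held by miR-3759-3p, which had 0.637% in drone and 4.90% in worker rectum. Drone rectum was the more concentrated column: its 5 leading entries held 79.4% of counts and 11 entries made up 90%, against 68.1% and 15 entries in worker rectum.

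**Figure D1:**
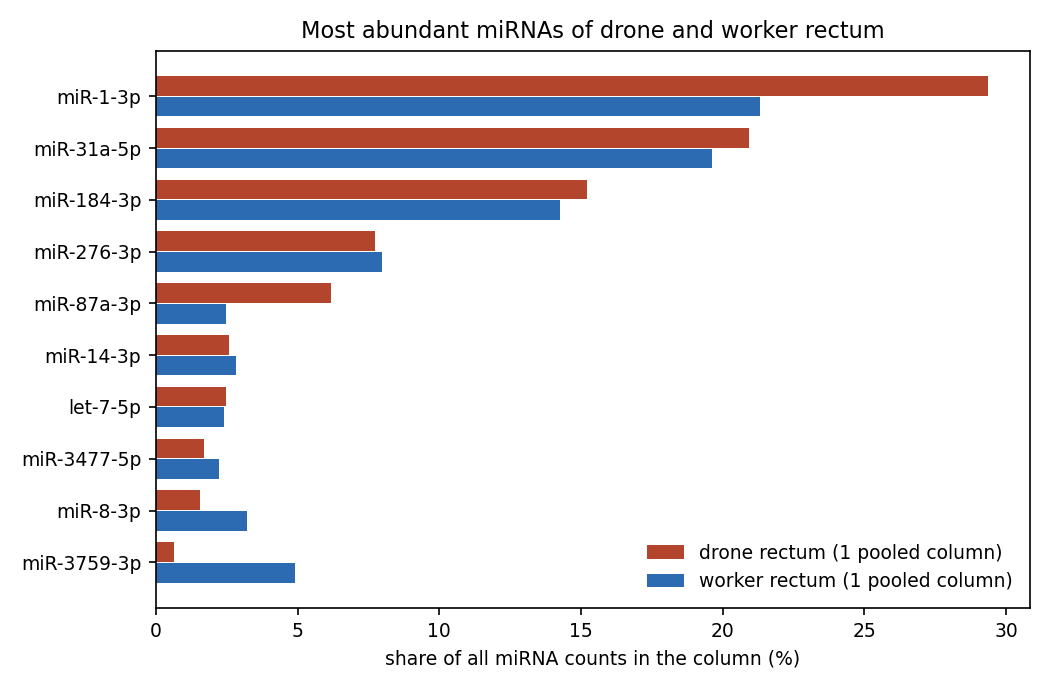
Share of all miRNA counts (%, horizontal axis) held by each of the entries among the 8 most abundant of drone rectum (red) or worker rectum (blue), with 1 pooled column per group and no error bars. The first 4 entries have the same order in both, while miR-87a-3p is longer in drone rectum (6.17% against 2.47%) and miR-3759-3p in worker rectum (0.637% in drone, 4.90% in worker).

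miR-31a-5p, an entry listed here as a hindgut marker with earlier results of these data known, stood at 195129 CPM in drone and 132474 CPM in worker rectum. The other 9 organ columns held 869 to 15831 CPM of it, the highest being drone testis. It was the single entry of the 80 for which both rectum columns lay above all 9 others. The muscle markers miR-1-3p and miR-133-3p summed to 275196 CPM in drone and 144685 CPM in worker rectum, which ranked 3 and 4 of the 11 columns. The other organs ran from 17243 CPM in drone testis to 431468 CPM in drone mucus gland. The midgut markers miR-281, miR-275, miR-750 and miR-1175 summed to 16944 CPM in drone and 9611 CPM in worker rectum. In ventriculus, the midgut, the sum was 174667 CPM in drones and 182956 CPM in workers. Most of the drone rectum sum was miR-275-3p, at 12598 CPM against 4703 CPM in worker rectum. This entry is among the 3 counted below as higher in drone rectum. miR-750-3p was lower in drone rectum, at 3390 against 4179 CPM, and miR-281-5p higher, at 954 against 729 CPM. This list did not mark the midgut alone, as its highest sum was 411030 CPM in queen ovary, of which miR-1175-3p made up 383119 CPM. miR-1175-3p had 0 counts in worker rectum and also in worker ventriculus. The 10 neural markers summed to 5743 CPM in drone and 17369 CPM in worker rectum, against 46553 CPM in drone and 60194 CPM in worker brain. Most of the sum in either rectum was miR-9a-5p, which was lower in brain, at 1204 CPM in drone and 921 CPM in worker brain. Without miR-9a-5p the neural sum was 924 CPM in drone and 1220 CPM in worker rectum. Of the 10, 3 (miR-1000-5p, miR-124-5p and miR-137-3p) had 0 counts in drone and 1 (miR-124-5p) in worker rectum. The ovary markers miR-989-3p and miR-318-3p summed to 353 CPM in drone and 952 CPM in worker rectum, against 21178 CPM in worker ovary. The part of other cell types in the ratios below was not tested.

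In all, 15 of the 80 entries were at least 2-fold apart with 50 CPM or more in the higher column, which is 18.8% of them. Of these, 3 were higher in drone rectum (3.75%) and 12 lower (15%). The 12 lower entries made up 1.34% of counts in drone and 9.05% in worker rectum, and the 3 higher ones 7.59% in drone and 3.16% in worker rectum. A further 63 entries were within 2-fold, and 2 (miR-6000b-3p and miR-932-5p) were further apart but under 50 CPM. The count depended on the scaling: with library totals, which shift every log2 ratio by -0.47, 2 entries were higher and 21 lower. The median log2 ratio over the 80 entries was 0.12 with TMM, -0.34 with library totals and 0.20 with the size factors of DESeq2. With 1 column on each side, the ratios have no replicate check.

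**Figure D2:**
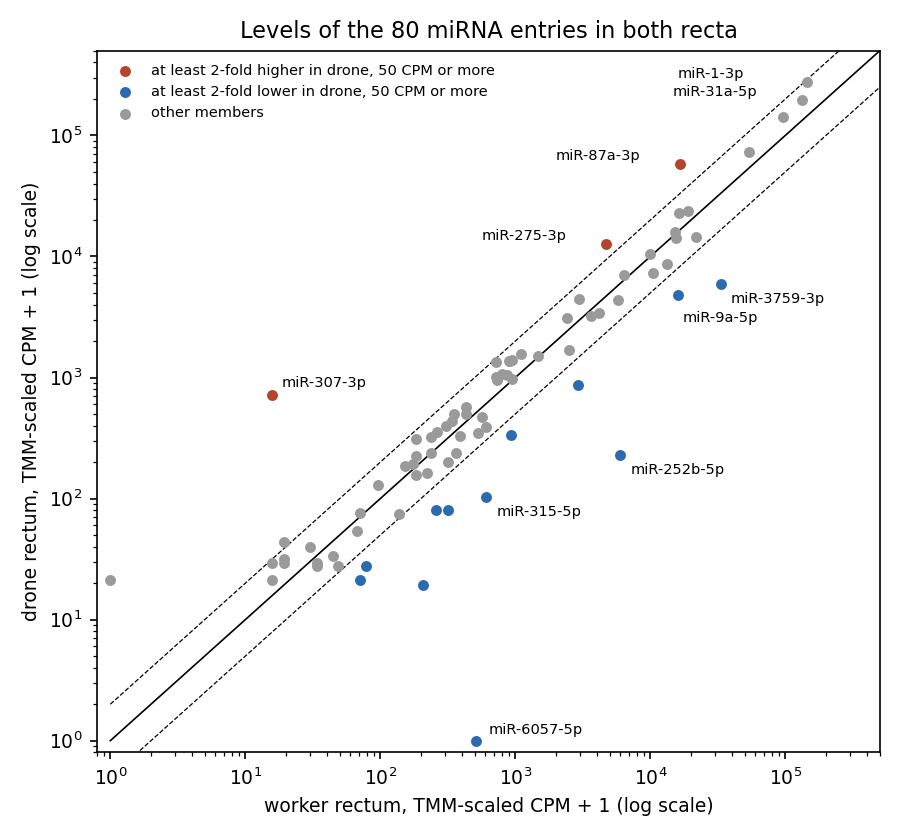
Level of each of the 80 entries in drone rectum (vertical axis) against worker rectum (horizontal axis), both in TMM-scaled CPM plus 1 on log scales. The solid line marks equal levels and the dashed lines a 2-fold difference; 3 red points lie above the band and 12 blue points below it, with miR-6057-5p on the floor of the drone axis at 0 counts and miR-307-3p shown without the second entry of its sequence.

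Among the entries higher in drone rectum, the most different was miR-307-3p, with 350 counts in drone and 4 in worker rectum. Its sequence is listed a second time as miR-67-3p, which had 0 and 1 counts, so the 2 entries were summed. The sum stood at 715 CPM in drone and 18.3 CPM in worker rectum, a log2 ratio of 5.21 (interval 4.05 to 6.92). miR-87a-3p had 28150 counts in drone and 4547 in worker rectum. That is 57516 against 16655 CPM, a log2 ratio of 1.79 (1.74 to 1.83). miR-275-3p, which is needed for blood digestion in mosquitoes, had 6166 counts in drone and 1284 in worker rectum. It stood at 12598 and 4703 CPM, a log2 ratio of 1.42 (1.34 to 1.51), and with library totals it was under 2-fold, at 0.96.

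Among the entries lower in drone rectum, miR-6057-5p had 0 counts in drone and 139 in worker rectum. Its 509 CPM in worker rectum was 83.1-fold the level that 3 counts would have in drone rectum. The counting interval of its log2 ratio had an upper end of -6.06, which allows a smaller fold than that. miR-252b-5p, which shares its number with miR-252a-5p, had 112 counts in drone and 1624 in worker rectum. It stood at 229 against 5948 CPM, a log2 ratio of -4.69 (-4.99 to -4.42), or 25.9-fold lower. miR-3759-3p had 2908 counts in drone and 9047 in worker rectum, or 5942 against 33137 CPM, with a log2 ratio of -2.48 (-2.54 to -2.42). The largest differences thus lay both at low counts and among the abundant miRNAs of worker rectum.

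Entries with known roles in flies or vertebrates were also among the 12. miR-315-5p, an activator of Wingless signalling in flies, had 50 counts in drone and 165 in worker rectum, a log2 ratio of -2.55 (-3.05 to -2.10). miR-13b-3p, a relative of the miR-2 miRNAs that target cell death genes in flies, had 39 and 87 counts, a log2 ratio of -1.99 (-2.58 to -1.44). miR-375-3p, known in vertebrates for control of insulin release, stood at 872 CPM in drone and 2927 CPM in worker rectum, a log2 ratio of -1.74 (-1.92 to -1.57). miR-9a-5p, which limits sensory organ precursors in flies, was the more abundant by far, with 2359 counts in drone and 4409 in worker rectum, or 4820 against 16149 CPM (log2 ratio -1.74, interval -1.82 to -1.67). miR-989-3p, an ovary-rich insect miRNA, stood at 337 CPM in drone and 923 CPM in worker rectum (log2 ratio -1.45, interval -1.75 to -1.16).

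The remaining 4 rested on few counts. miR-3732 had 9 counts in drone and 56 in worker rectum (log2 ratio -3.41, interval -4.68 to -2.45), and miR-3720-5p 39 and 70 (-1.67, interval -2.29 to -1.10). miR-282-5p had 10 counts in drone and 19 in worker rectum (log2 ratio -1.72), and miR-6037-3p 13 and 21 (-1.50). For the last pair the intervals, -3.04 to -0.59 and -2.65 to -0.47, reach below a 2-fold difference, so that they cannot be placed on either side of it at this depth. For the other 13 entries the whole interval lay beyond 2-fold. By name, 5 of the 12 lower entries (miR-3720-5p, miR-3732, miR-3759-3p, miR-6037-3p and miR-6057-5p) carry numbers of 4 digits that start with 37 or 60. Such names made up 15 of the 80 entries, and the grouping was chosen after the values were seen.

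Ratios of 2 miRNAs within a column do not depend on the scaling. In drone rectum there were 7.50 counts of miR-275-3p for each count of miR-306-5p, its partner of the same seed, and in worker rectum 1.90. For miR-252b-5p there were 1.23 counts in drone rectum and 39.6 in worker rectum for each count of miR-252a-5p. The miR-2a-5p sequence is listed in 3 entries, with 2007 counts in drone and 750 in worker rectum when summed. For each of these counts there were 0.0194 counts of miR-13b-3p in drone and 0.116 in worker rectum. The 3 entries had nearly equal counts, and whether the same reads were counted in each is not known. Against the miR-2a-5p entry alone the values were 0.0586 in drone and 0.351 in worker rectum. The partners themselves were within 2-fold with TMM scaling: the log2 ratio was -0.56 for miR-306-5p, 0.31 for miR-252a-5p and 0.58 for miR-2a-5p.

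Among the entries, 6 seeds were carried by more than 1 sequence. For the seed of miR-9a-5p and miR-9c-5p the summed level was 4949 CPM in drone and 16244 CPM in worker rectum, a log2 ratio of -1.71 (-1.79 to -1.64), although miR-9c-5p alone had a ratio of 0.43 on 63 and 26 counts. For the seed of miR-275-3p and miR-306-5p the sum was 14278 CPM in drone and 7183 CPM in worker rectum (log2 ratio 0.99, interval 0.92 to 1.06). For the seed of miR-2a, miR-11, miR-13 and miR-2944, in 5 sequences, the sum was 4695 CPM in drone and 3787 CPM in worker rectum (0.31, interval 0.20 to 0.42), while single members ran from -1.99 to 0.58. This sum takes the entries of the miR-2a-5p sequence as separate reads, which is not known. The miR-279 and miR-996 seed, also in 5 sequences, had 2615 CPM in drone and 2249 CPM in worker rectum (0.22). The miR-92b and miR-92c seed had 384 and 253 CPM (0.60), and the seed of miR-10a-5p and miR-3785-3p 15069 and 16325 CPM (-0.12). With library totals, each of the sums between 0 and 0.47 turns to a ratio below 0.

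Brain and ventriculus, which were also sequenced in drones and workers, gave the same contrast in columns that are not shared with rectum. Of the 116 entries with 10 or more counts in a brain column, 30.2% were at least 2-fold apart with 50 CPM in the higher one, and of the 99 in ventriculus 15.2%. Of the 12 entries lower in drone rectum, 5 were also at least 2-fold lower in drone brain (14.7% of the brain entries were). miR-375-3p stood at 157 CPM in drone and 4821 CPM in worker brain, and at 11877 CPM in drone and 16650 CPM in worker ventriculus. miR-3759-3p stood at 1982 CPM in drone and 13219 CPM in worker brain, with 15058 and 12719 CPM in ventriculus. The other 3 were miR-3720-5p, miR-3732 and miR-989-3p. In ventriculus 1 of the 12 was at least 2-fold lower in drones (8.08% of the ventriculus entries were). This was miR-989-3p, with 1308 CPM in drone and 4267 CPM in worker ventriculus, and it was the single entry lower by 2-fold in all 3 organs. In contrast, miR-315-5p and miR-3720-5p were at least 2-fold higher in drone ventriculus, with log2 ratios of 1.76 and 1.86 (7.07% of the ventriculus entries were).

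Of the 3 entries higher in drone rectum, miR-87a-3p and miR-275-3p were also at least 2-fold higher in drone brain, with log2 ratios of 1.27 and 1.07 (15.5% of brain entries were higher). miR-275-3p dropped under 2-fold in rectum with library totals and in brain with the size factors of DESeq2. In ventriculus none of the 3 was 2-fold apart (7.07% of the ventriculus entries were higher), and their log2 ratios were -0.59 for miR-87a-3p, 0.47 for miR-275-3p and 0.74 for the summed miR-307-3p sequence. In brain that sequence went the other way, with 28.1 CPM in drone and 683 CPM in worker brain. miR-252b-5p, with the third largest difference in rectum, stood at 199 CPM in drone and 227 CPM in worker brain, and at 160 and 120 CPM in ventriculus. miR-9a-5p had log2 ratios of 0.39 in brain and -0.80 in ventriculus.

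**Figure D3:**
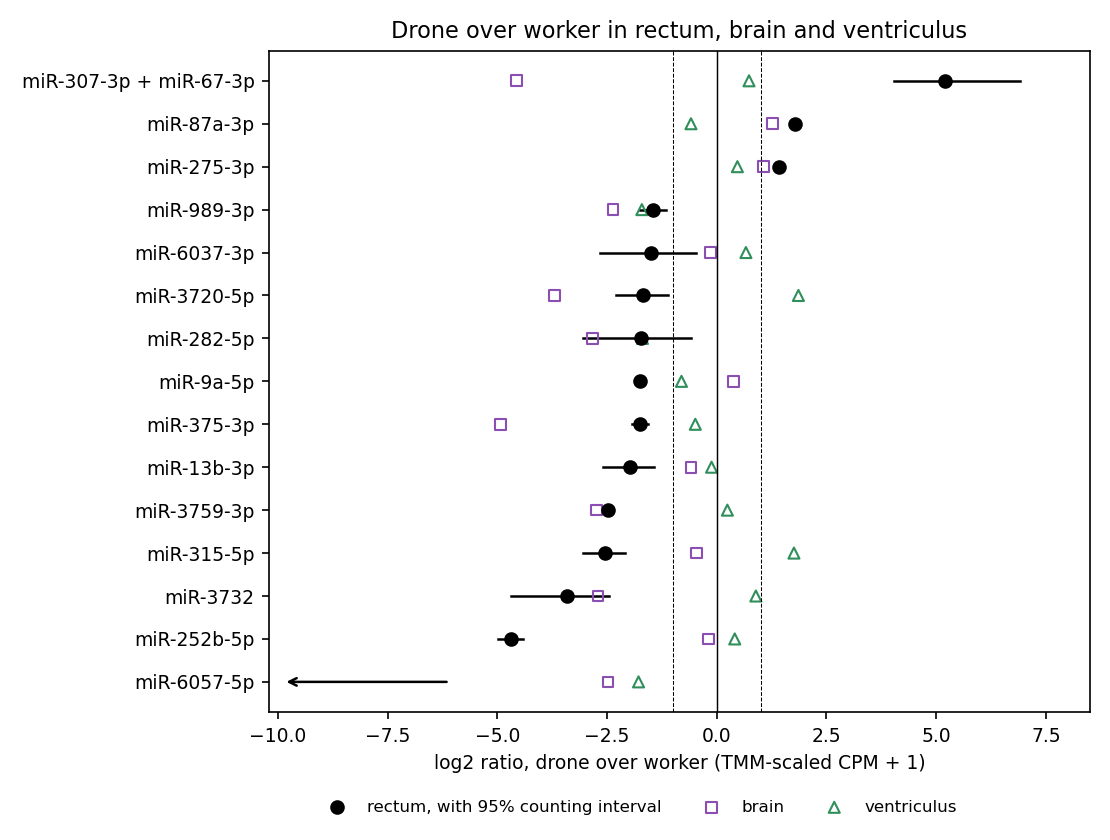
Log2 ratio of drone over worker (horizontal axis, TMM-scaled CPM plus 1) in rectum (black, with 95% counting intervals), brain (squares) and ventriculus (triangles) for the 15 entries at least 2-fold apart in rectum; dashed lines mark 2-fold, with the 2 entries of the miR-307-3p sequence summed; the arrow marks miR-6057-5p, which had 0 counts in drone rectum. miR-375-3p and miR-3759-3p lie beyond 2-fold to the left in rectum and brain but not in ventriculus (-0.49 and 0.24), and miR-252b-5p lies at -4.69 in rectum against -0.19 in brain and 0.41 in ventriculus.

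Whether the rectum ratio differed from the mean of the brain and ventriculus ratios was tested with edgeR's quasi-likelihood test. Its model held organ, drone or worker, and a rectum term over 6 columns. The 1 residual degree of freedom measured how far brain and ventriculus disagreed about the difference between drones and workers. Rectum was therefore assumed to vary like these organs. Of 114 entries tested, 0 passed an adjusted p of 0.05 (0%), and 4 had an unadjusted p under 0.05: miR-252b-5p, miR-6057-5p, miR-6000b-3p and miR-6038-5p. The sequence of miR-6000b-3p is listed a second time as miR-6000-3p, and with shared sequences summed its unadjusted p was 0.303 in edgeR, which left 3 entries. With DESeq2 1 of 113 passed (0.885%), miR-252b-5p, whose rectum ratio was lower than that of the other organs by a log2 difference of -4.56 (DESeq2 adjusted p 0.000257). In edgeR that difference was -4.81 (p 0.0166, edgeR adjusted p 1). The same edgeR model gave a test of the rectum ratio itself with the spread taken from the other organs. It called 0 of 114 entries (0%), with 4 at an unadjusted p under 0.05, among them miR-252b-5p (edgeR adjusted p 0.640) and miR-6057-5p (edgeR adjusted p 0.640). DESeq2 called 2 of 113 (1.77%), miR-252b-5p (DESeq2 adjusted p 4.9e-07) and miR-6057-5p (DESeq2 adjusted p 0.0116). With edgeR, no entry was shown to differ between the recta by more than the drone and worker differences of brain and ventriculus vary. The calls of miR-252b-5p and miR-6057-5p rested on DESeq2 alone, with the same 1 residual degree of freedom. For miR-6057-5p the columns of the other organs held few counts. There were 2 in drone and 6 in worker brain, and 9 in drone and 49 in worker ventriculus.

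Over all 11 organ columns, worker rectum held the highest level of 3 of the 80 entries and drone rectum of 3. miR-252b-5p reached 5948 CPM in worker rectum, and the highest of the other organs was drone testis with 1745 CPM. Drone rectum, at 229 CPM, lay within the 94.6 to 1745 CPM of the other organs. miR-6057-5p reached 509 CPM in worker rectum, against 24.9 CPM at most in the other organs. miR-9a-5p, at 16149 CPM in worker rectum, was close to the 14698 CPM of worker ventriculus. miR-87a-3p was highest in drone rectum, at 57516 CPM, followed by drone brain at 50128 CPM. The summed miR-307-3p sequence had 715 CPM in drone rectum and 683 CPM in worker brain. miR-3759-3p, with 33137 CPM in worker rectum, was second to worker venom gland, with 39631 CPM.

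**Figure D4:**
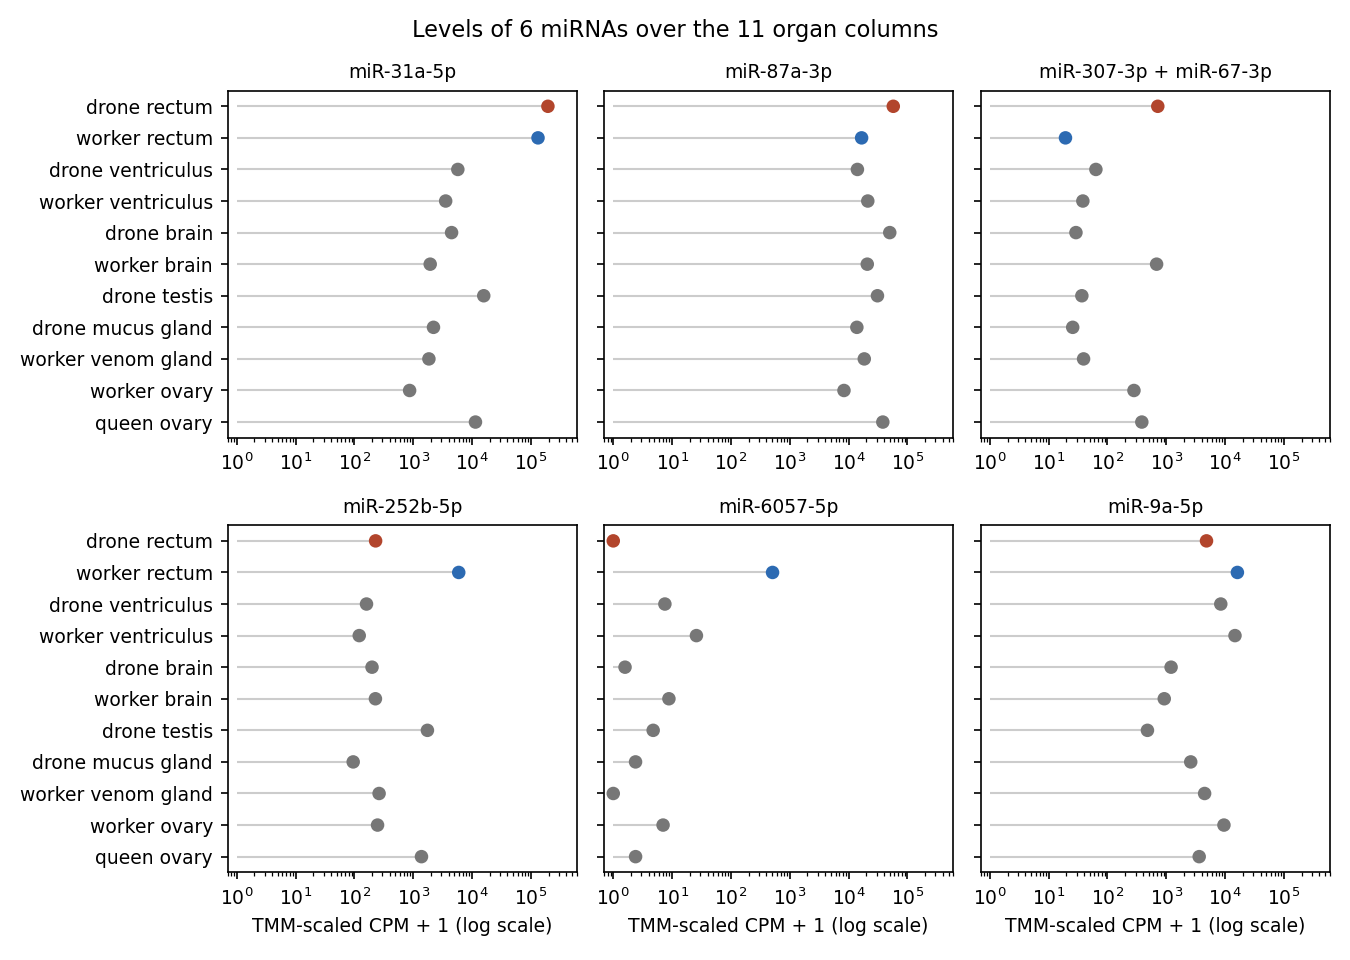
Levels of 6 miRNAs (horizontal axes, TMM-scaled CPM plus 1 on a log scale) in the 11 organ columns, with drone rectum in red, worker rectum in blue and the other organs in grey; each point is 1 pooled column. miR-31a-5p is highest in both recta, while miR-252b-5p and miR-6057-5p stand out in worker rectum, at 5948 and 509 CPM.

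Across the 80 entries the log2 levels of drone and worker rectum had a Pearson r of 0.89 and a Spearman rho of 0.91, as a description of columns that share the entries' own abundances. For drone rectum, Pearson's r with the other organs ran from 0.64 (drone testis) to 0.90 (worker venom gland), against 0.89 for worker rectum. By Spearman's rho the order of the first pair was the other way round, with 0.910 for worker rectum and 0.907 for worker venom gland. For worker rectum drone rectum came first by both measures, followed by worker venom gland with a Pearson r of 0.89 and drone ventriculus with 0.87.

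The lists of miRNAs with known roles were small, and whether any of them differed from all entries was not tested. Over the 77 distinct sequences the median log2 ratio was 0.08 with TMM and -0.39 with library totals, with 3 higher and 12 lower. Of 8 gut and excretory members 1 (miR-275-3p) was higher and 0 lower, with a median of 0.07. miR-8-3p, an epithelial miRNA of the miR-200 family, stood at 14542 CPM in drone and 21658 CPM in worker rectum, and miR-750-3p at 3390 and 4179 CPM. miR-281-5p, a midgut miRNA of insects, stood at 954 CPM in drone and 729 CPM in worker rectum. The 2 muscle members had a median of 0.90 and neither reached 2-fold: miR-1-3p had a log2 ratio of 0.93 and miR-133-3p of 0.88 on 651 and 197 counts. With DESeq2 size factors miR-1-3p passed 2-fold, at 1.01, and with library totals the 2 stood at 0.46 and 0.42.

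Of 6 neural members 2 (miR-315-5p and miR-9a-5p) were lower and 0 higher, with a median of -0.47. Neither of these was highest in brain: miR-315-5p was highest in queen ovary, at 1398 CPM, and miR-9a-5p in worker rectum. The brain-rich miR-2796-3p had 230 and 154 counts and a log2 ratio of -0.26. Of 6 metabolic members 1 (miR-375-3p) was lower, with a median of -0.06, and miR-14-3p, which acts in fat metabolism in flies, stood at 23879 CPM in drone and 19065 CPM in worker rectum. Of 6 growth and apoptosis members 1 (miR-13b-3p) was lower, with a median of -0.38, and the growth miRNA bantam-3p stood at 7302 CPM in drone and 10457 CPM in worker rectum. Of 4 members of the mir-71/mir-2 cluster the same miR-13b-3p was lower, with a median of -0.20. Of the 2 ovary and germline members miR-989-3p was lower, while miR-184-3p stood at 141997 CPM in drone and 96432 CPM in worker rectum.

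No member of the other 4 lists was 2-fold apart. The let-7 complex, made from 1 primary transcript and known as a timer of metamorphosis, had let-7-5p at 23041 CPM in drone and 16241 CPM in worker rectum, miR-100-5p at 501 and 348 CPM and miR-125-5p at 192 and 172 CPM. Its median log2 ratio was 0.50 with TMM and 0.04 with library totals. The ecdysone and ageing list, which held miR-34-5p and 2 others, had a median of 0.13, with miR-34-5p at 10396 CPM in drone and 9900 CPM in worker rectum. The Hox cluster, with miR-10a-5p and miR-993-3p measured, had a median of 0.15, and the early embryo list, with miR-2944-3p and miR-3791-3p, 0.02. With library totals the medians of these last 3 lists were -0.34, -0.32 and -0.45. With library totals a further member was lower in the gut and excretory (miR-8-3p), metabolic, neural, growth and mir-71/mir-2 lists, and miR-275-3p was no longer higher, while with the size factors of DESeq2 the neural miR-932-5p (21 and 5 counts) was higher.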

How the data were processed

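Small RNA libraries of rectum, brain, ventriculus and other organs were compared as pooled columns. Per the labels' protocols, organs were frozen and RNA taken with Trizol before small RNA library preparation. The table deposited by the authors holds raw miRNA counts, 1 pooled column for each group. Per the submitters' processing notes, bcl2fastq and kallisto were used; their versions, settings and the genome build are not given in the sources used here. Per the file headers, the list of conserved miRNAs gives lengths and sequences. The sequencing statistics were not used here, because their library codes match no single labelled sample.

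The members, lists and naming rule were chosen with earlier results of these data known. Entries with 10 or more counts in a rectum column were kept. TMM factors over 11 columns (edgeR 4.0.16, R 4.3.3) scaled counts to CPM, and 1 CPM was added before log2. An entry was counted when at least 2-fold apart with 50 CPM in the higher column. The edgeR quasi-likelihood test used filterByExpr with a minimum of 10 counts, 5 coefficients over 6 columns and Benjamini-Hochberg adjustment. It was run on simulated data with no difference between drones and workers in brain or ventriculus. Their spread was far smaller than in the real fit, where edgeR's common dispersion was 0.522. The simulation therefore does not show how the test behaves on these columns. DESeq2 1.42.0 was an alternative. The entries named were up to 10 per direction by size, the 5 most abundant and list members; miR-6037-3p and the partners by seed or name were added after their values were seen. The p-values measure the spread between organ columns, not between bees. Of the 80 entries, 78 were in the authors' list of 200 conserved miRNAs, 56 with the same sequence, and 7 shared a sequence with another entry.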

Additional observations from a re-analysis of the deposited data

How the results depend on the processing

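No entry counted as different changed direction under the 12 alternative settings for the rectum ratio, but these settings could hardly reverse one. Limits on level, fold or counts leave a ratio as it is. Library totals shift log2 ratios by -0.47, while the counted entry nearest to 0 was miR-275-3p, at 1.42. Entries higher in drone rectum numbered 3, and 5 with DESeq2 size factors (miR-1-3p and miR-932-5p added) or with a minimum of 10 CPM, and 1 with a 4-fold limit. Entries lower numbered 12, and 21 with library totals and 5 with a 4-fold limit; with library totals 14 of the 15 entries kept their call and 9 were added. The entries that kept their call under every setting were miR-307-3p, miR-252b-5p, miR-6057-5p, miR-3759-3p, miR-315-5p and miR-3732. miR-282-5p and miR-6037-3p lost it with a minimum of 200 CPM or 50 counts, and miR-275-3p with library totals. DESeq2 called 1 entry in the test against the other organs and 2 in the pooled-spread test of rectum, where edgeR called 0 under each other setting, including shared sequences summed, a setting chosen once the data had been seen. The smallest edgeR adjusted p over these settings ran from 0.925 to 1 and from 0.509 to 0.892 in the 2 tests; why DESeq2 and edgeR differ was not tested. Rectum calls found at least 2-fold the same way in ventriculus numbered 1, and 2 with library totals. No paired analysis was possible because each group is 1 pooled column that carries no replicate number, and for the same reason no library could be left out. With 1 pooled column on each side, depth bounds counting error only.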

Other observations

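Outside the compared entries, 45 had 1 to 9 counts in a rectum column. Among them miR-6038-5p had 8 counts in drone and 0 in worker rectum, and miR-318-3p, an ovary miRNA of flies, had 8 in each.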
